A study of Sus scrofa with 32 samples.

Results

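Cytotoxic gamma delta T cells of the porcine ileum were examined in single-cell RNA-seq libraries of 2 pigs. Members were chosen by their own counts of unique molecular identifiers (UMIs, each standing for 1 captured transcript molecule). A barcode was a member when it held at least 1250 UMIs and 550 genes, at most 12.5% mitochondrial UMIs, CD3E, TRDC and CD2, at least 2 UMIs of GZMB with more GZMB than CTSW, and no UMI of CD8B, CD79B, TOP2A or EPCAM. This gave 1585 cells of 35386 kept ileal barcodes, or of 48629 kept barcodes with blood included. Those 9 genes selected the cells, so their levels are given as a description, and no count of genes that passed a test includes them.

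The ileum of 1 female pig (pig 1) and 1 male pig (pig 2), both mixed-breed and 7 weeks old, was dissected into tissue from regions with Peyer's patches (PP), tissue from regions without them (non-PP) and whole cross sections (whole ileum). In every dissection, PP included, cells of epithelium and underlying tissue were combined, and live cells were enriched before droplet capture and 3′ sequencing. Peripheral blood mononuclear cells (PBMC), labelled for the same pigs, gave the other 2 of 8 libraries. No treatment was given, each group held 2 libraries, 1 labelled for each pig, and the pig as labelled was taken as the replicate.

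Gamma delta T cells carry a T cell receptor of gamma and delta chains, the delta constant region being encoded by TRDC. They are abundant in pigs, and many of them lie in the intestinal epithelium. Cytotoxic lymphocytes kill through granules: perforin (PRF1) and granulysin (GNLY) act on the target's membrane and granzymes are proteases that start cell death, while NKG2D (KLRK1) is an activating receptor for stress ligands.

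The library labelled whole ileum pig 1 went against its label. Y-linked transcripts reached 207 CPM there (counts of UMIs scaled to a fixed total within the barcodes summed, here all kept barcodes of the library). They stood at 0.224 and 0.161 CPM in the non-PP and PP libraries of pig 1 and at 0 in the blood of pig 1. In the 4 libraries of pig 2 they stood at 119 to 226 CPM. The 278 members of whole ileum pig 1 alone held 183 CPM. The library was kept under its label, and counts of genes are given with it and without it below. Kept barcodes shared between pairs of libraries numbered 21 to 80, and 1 member's barcode was also a member's barcode in another ileal library.

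GZMB, on chromosome 7 (74705499 to 74708781, Sscrofa11.1), encodes granzyme B and was far above the minimum in most members. The median member held 34 GZMB UMIs and the highest 286, and 1344 of the 1585 held 10 or more. By library the median was 41 and 36 UMIs in non-PP, 33 and 20 in PP, and 30 and 27.5 in whole ileum (pig 1 first, here and below). Just inside the minimum lay 36 members with 2 GZMB UMIs. Just outside it lay 47 cells with 1 GZMB UMI and no CTSW, and 59 more held GZMB and CTSW in equal number. In all, 989 ileal cells that met the other conditions held 0 or 1 GZMB UMI.

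GZMB, which B cells should lack, was also counted in barcodes taken as B cells (CD79B present, CD3E absent), and free RNA held 2068 to 11373 CPM of it. These barcodes numbered 28 and 65 in non-PP, 3881 and 3800 in PP, and 2041 and 4846 in whole ileum. Of them, 39.3% and 75.4% in non-PP, 4.41% and 6.68% in PP, and 21.4% and 7.61% in whole ileum met the GZMB condition. At 10 or more UMIs these shares were 0%, 10.8%, 0.283%, 0.974%, 2.35% and 0.908%, while 91.8%, 84.4%, 89.0%, 69.7%, 80.6% and 77.9% of members passed. B cells were no shallower than members in any ileal library, with medians of 2776 to 4160 UMIs against 2175.5 to 2718.

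Members were most frequent in tissue without Peyer's patches. They made up 12.8% (95% exact binomial interval 11.7% to 13.9%) and 13.1% (12.02% to 14.2%) of kept barcodes in non-PP, against 1.24% (1.00% to 1.52%) and 1.73% (1.44% to 2.07%) in PP. The means were 12.9% ± 0.222 and 1.49% ± 0.347 (SD, n = 2 pigs), and the difference of 11.4 percentage points was 11.5 in pig 1 and 11.4 in pig 2. In whole ileum the shares were 4.802% and 1.35%, the first from the library that went against its label, and in blood 1.10% and 0.574%. Groups did not overlap between non-PP and PP. With 2 against 2 libraries the two-sided exact permutation test gave p = 0.333, the smallest it allows, and the sign-flip test within pigs p = 0.5, likewise the smallest. Intervals cover counting error only.

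Members were also the larger share of gamma delta T cells in non-PP. Gamma delta cells were counted here as cells that met the rule's conditions other than that on GZMB. Those without CD2 or with CD8B were thus left out of the count. Members made up 61.5% and 67.2% of these gamma delta cells in non-PP, 30.6% and 37.0% in PP, 53.6% and 39.2% in whole ileum, and 33.6% and 21.2% in blood. At 10 or more GZMB UMIs, 26 and 13 blood cells remained, 12.3% and 7.07% of blood gamma delta cells and 0.404% and 0.191% of kept blood barcodes. The non-PP mean was 64.3% ± 4.07 and the PP mean 33.8% ± 4.47 (SD, n = 2). Of all CD3E-positive barcodes they were 14.7% and 19.0% in non-PP, 3.27% and 4.95% in PP, and 10.0% and 4.84% in whole ileum. Non-PP libraries had fewer kept barcodes (3908 and 3776) than PP libraries (7337 and 6872), and dissection and the recovery of cells cannot be told apart in a share.

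**Figure D1:**
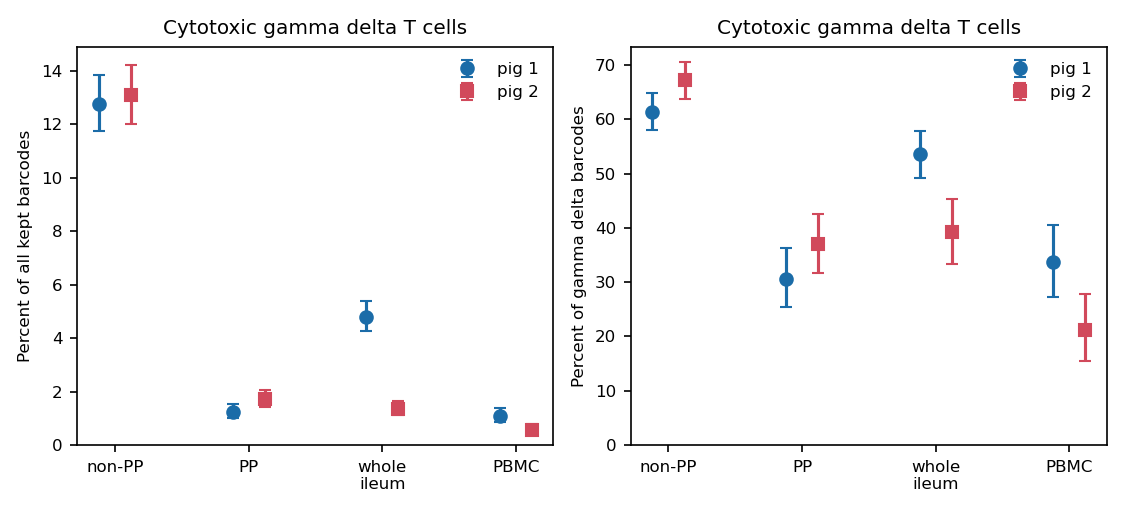
Share of cytotoxic gamma delta T cells in each library, as a percent of all kept barcodes (left) and of gamma delta barcodes (right), by dissection and blood; circles are pig 1, squares pig 2, and bars are 95% exact binomial intervals. Both non-PP libraries lie at about 13% of kept barcodes and above 60% of gamma delta barcodes, above every other library. Gamma delta barcodes are those that met the rule's conditions other than that on GZMB.

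The name was checked against KLRK1, the one fixed marker that did not select the cells. KLRK1 was detected in 84.4% and 83.6% of members in non-PP, 79.1% and 63.0% in PP, and 74.8% and 69.2% in whole ileum. Of the barcodes taken as B cells, which were few in non-PP, 14.3%, 27.7%, 2.4%, 3.1%, 6.1% and 3.2% held it in the same libraries in the same order. KLRK1 stood at 994 to 1427 CPM in members, above the free RNA of every library (209 to 848 CPM). CTSW-high gamma delta T cells, defined below, held it about as often, in 85.5%, 82.1%, 75.8%, 74.1%, 75.8% and 78.2% of cells, more often than members in 4 of the 6 libraries. KLRK1 was thus present in most members of every library, and in most CTSW-high cells, so it does not bear on the cytotoxic part of the name. NCR1, a receptor of natural killer cells, was at 0 in all members, and CD4 was found in 0% to 1.0% of them.

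Genes of the receptor complex were expressed in members of every library. TRDC stood at 3379 to 4238 CPM (median 3858), CD3D at 451 to 726 CPM, and CD247, the zeta chain that carries the signal of both T cell and natural killer receptors, at 1345 to 2289 CPM. The kinase genes LCK (547 to 639 CPM) and ZAP70 (189 to 271 CPM) varied by less than 1.5-fold among libraries. CD8A, without the CD8B that the rule barred, was detected in 36.1% to 52.5% of members, at 255 to 400 CPM.

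Granule genes were abundant. GZMB alone stood at 16422 and 15558 CPM in non-PP, 13320 and 10558 CPM in PP, and 13662 and 14134 CPM in whole ileum. The granzyme A locus, a pair of neighbouring genes on chromosome 16 (34262495 to 34272084 and 34282160 to 34290422) whose reads the counting may split, gave 6350 to 10144 CPM for ENSSSCG00000016902 and 3234 to 5074 CPM for ENSSSCG00000016903. GNLY (chromosome 3, 59067327 to 59072034) was the most uneven of them, at 11771 and 13883 CPM in non-PP, 5788 and 7181 CPM in PP, and 10508 and 9821 CPM in whole ileum. Both PP libraries were thus the lowest for GNLY. Free RNA held it too, at 2139 CPM in PP pig 1 and up to 14413 CPM in non-PP pig 2, where it was as high as in members.

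Among other effector genes, the chemokine gene CCL5 stood at 17675 to 32986 CPM and XCL1, whose product draws cross-presenting dendritic cells, at 271 to 826 CPM. PRF1 stood at 241 to 391 CPM and IFNG at 54.3 to 119 CPM. FCER1G, an adaptor that pairs with activating receptors, stood at 855 to 1538 CPM. ITGAE, the alpha E integrin that binds epithelial cadherin, was at 629, 519 and 332 CPM in the libraries labelled pig 1 (non-PP, PP and whole ileum) and 394, 284 and 288 CPM in those of pig 2. These CPM values count 3′ ends and are not scaled by length.

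**Figure D2:**
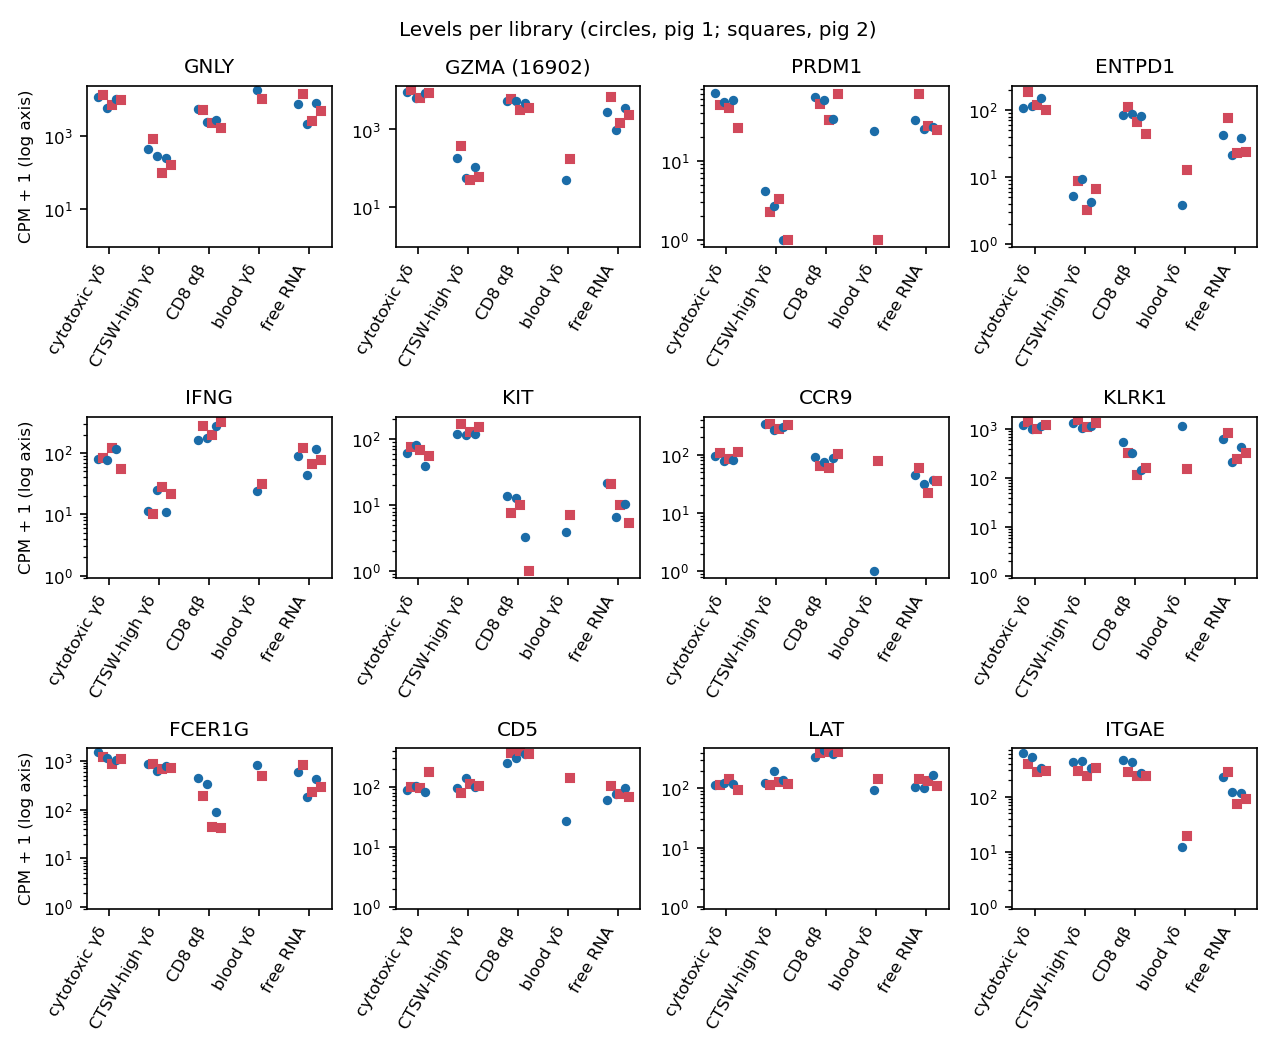
Level of 12 genes per library on a log axis of CPM + 1, in ileal cytotoxic gamma delta T cells, CTSW-high gamma delta T cells, cytotoxic CD8 alpha beta T cells (6 ileal libraries each), blood cells passing the same rule (2 libraries) and ileal free RNA (barcodes with at most 50 UMIs); circles are libraries labelled pig 1, squares pig 2. GNLY, GZMA, PRDM1, ENTPD1 and IFNG of cytotoxic gamma delta T cells lie above every CTSW-high library, KIT and CCR9 below, and ITGAE lies far above both blood libraries.

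Some genes stood far apart between the pigs in members. Of 2240 genes at 50 CPM or more, 37 were at least 2-fold apart, with no overlap, between the non-PP and PP libraries of pig 1 and the 3 libraries of pig 2, and 36 of these were not Y-linked. All 36 were nearer pig 2 in the library labelled whole ileum pig 1. HSP70.2, a heat shock chaperone gene, stood at 18.9 and 20.1 CPM in non-PP and PP of pig 1, 1149, 568 and 1249 CPM in non-PP, PP and whole ileum of pig 2, and 546 CPM in whole ileum pig 1. HSP90AA1 stood at 725 and 719 CPM against 3721, 3209 and 3616 CPM, with 3312 CPM in whole ileum pig 1. The interferon-induced gene ISG15 stood at 608 and 719 CPM against 2360, 1648 and 2439 CPM, with 1837 CPM there. Others of these 36 were DNAJB1, HSPH1, HSPA8, HSPD1 and HSPE1 among chaperones and MX2, IFI6, IFIT1, RSAD2, CMPK2 and EPSTI1 among interferon-induced genes, and 4 genes, TFF3 and EIF3I among them, were higher in pig 1. These genes were picked for their difference, so no test was made, and pig, sex and handling cannot be told apart.

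**Figure D3:**
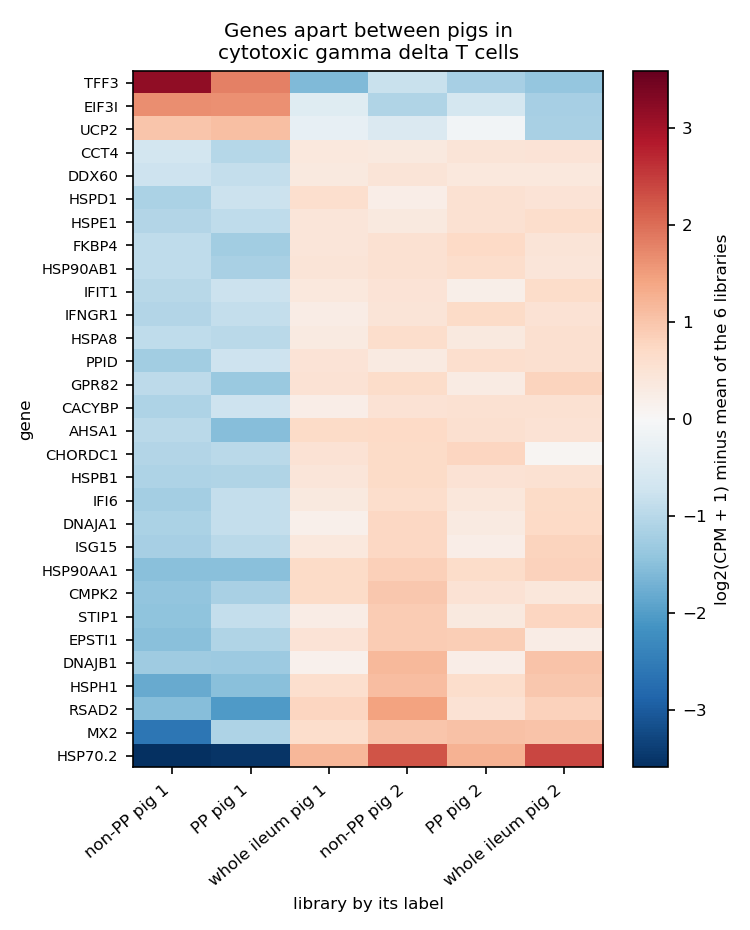
Genes with a symbol that were at least 2-fold apart in members between the non-PP and PP libraries of pig 1 and the 3 libraries of pig 2, as log2(CPM + 1) minus the mean of the 6 libraries (colour). The column of the library labelled whole ileum pig 1 lies nearer the 3 columns of pig 2 in every gene shown.

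Members were not uniform in GZMB, and several other genes varied with it. Members were divided into quartiles of the share of their UMIs that was GZMB, at 0.631%, 1.47% and 2.37%, and the CPM of other genes was computed without GZMB. These are ranges of 1 score, and 66, 152 and 189 members lay within 10% of the 3 limits. From the lowest to the highest quartile the mean of 6 libraries went from 1023 to 23374 CPM for GNLY, from 185 to 496 CPM for PRF1, from 889 to 2482 CPM for NKG7 and from 761 to 1669 CPM for KLRK1. FCER1G went from 690 to 1539 CPM and ITGAE from 293 to 487 CPM. The chemokine gene CCL5 went from 17295 to 29605 CPM, and of the receptor complex CD247 went from 1452 to 2909 CPM, TRDC from 3237 to 4913 CPM and CD3D from 482 to 688 CPM. GNLY, PRF1, NKG7, KLRK1, FCER1G and ITGAE were each higher in the highest quartile than in the lowest in all 6 libraries, although KLRK1 hardly so in PP pig 1 (1004 to 1024 CPM).

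In the other direction, XCL1 went from 837 to 176 CPM and CCR9, the receptor for the small-intestinal chemokine CCL25, from 180 to 35.4 CPM. Both were lower in the highest quartile than in the lowest in all 6 libraries. For XCL1 the fall in PP pig 1 was small, from 242 to 156 CPM. Since the quartiles were drawn on a gene of the rule, and cells of 1 library share its free RNA, this is a description with no test.

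**Figure D4:**
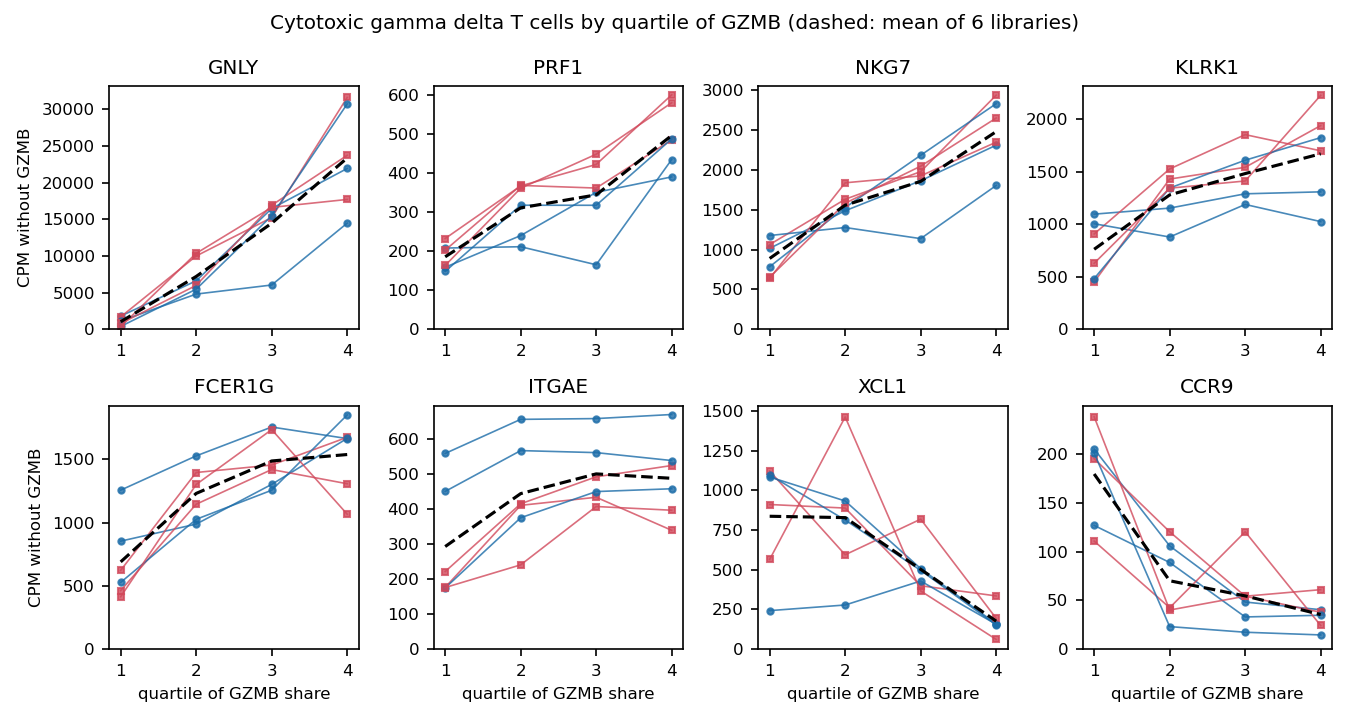
Level of 8 genes in cytotoxic gamma delta T cells by quartile of the GZMB share of UMIs (x axis), in CPM computed without GZMB (y axis, from 0); thin lines are the 6 ileal libraries (circles pig 1, squares pig 2) and the dashed line is their mean. GNLY, PRF1 and NKG7 are highest in the fourth quartile of all 6 libraries, XCL1 is lowest there in all 6 and CCR9 in 4.

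To ask what else separates the cytotoxic cells from gamma delta T cells dominated by CTSW, members were set against 1109 ileal cells that passed the same conditions but held at least 2 CTSW UMIs and more CTSW than GZMB. Counts were summed for each pig and class, and 5 classes were fitted together with edgeR's quasi-likelihood test, 10 sums in all, with p-values adjusted by the Benjamini-Hochberg method. The genes of the rule stayed in the fit and its adjustment but were left out of the 8569 genes counted here. Members were higher in 4 of 18 granule genes, in IFNG, PRDM1 and ENTPD1, and lower in CA2 and ZNF683, the last not without whole ileum pig 1. Of the genes tested 36 passed at an adjusted p below 0.05, 29 higher and 7 lower in members (0.42% of the genes tested, 0.338% and 0.0817% by direction).

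GZMA (ENSSSCG00000016902) stood at 6350 to 10144 CPM in members and at 47.6 to 371 CPM in CTSW-high cells of the 6 libraries, without overlap. Its log2 fold change was 5.66 ± 0.39 (SE; adjusted p = 2.2e-06, edgeR), and that of the neighbouring GZMA entry 5.64 ± 0.32 (adjusted p = 3.1e-07). GNLY stood at 95.2 to 851 CPM in CTSW-high cells, below the free RNA of every library, and was higher in members by 4.68 ± 0.26 on the log2 scale (adjusted p = 3.1e-07). GNLY was detected in 16.3% to 94.0% of CTSW-high cells and 19.3% to 98.5% of B cells by library, against 52.9% to 96.8% of members, and the part of free RNA in the result was not tested.

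PRDM1, which encodes the transcription factor Blimp-1, was at 25.1 to 69.9 CPM in members and 0 to 3.13 CPM in CTSW-high cells, a log2 fold change of 4.92 ± 0.46 (adjusted p = 5.0e-05, edgeR). ENTPD1, the ectonucleotidase CD39, was at 100.2 to 186 CPM against 2.27 to 8.47 CPM (4.61 ± 0.28, adjusted p = 6.0e-07). For both genes every member library was above every CTSW-high library. IFNG was at 54.3 to 119 CPM against 8.94 to 27.2 CPM (2.43 ± 0.22, adjusted p = 3.9e-05). SYTL2, which helps to dock granules, BATF3, CD200R1 and CD1D were the other named genes that were higher, by 1.51 to 1.77 on the log2 scale. ZBTB16, encoding PLZF, was also higher, at 8.35 to 25.4 against 0 to 6.78 CPM.

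CA2, a carbonic anhydrase, was at 3.35 to 20.9 against 74.9 to 125 CPM (-2.94 ± 0.22), and MFAP5, NAPSA, TUBA4A and ZNF683, encoding the tissue-residence factor Hobit, were also lower. ZNF683 stood at 3.64 to 38.7 against 33.2 to 85.4 CPM (-1.89 ± 0.34, adjusted p = 0.032, edgeR), with overlap between the classes, a call that the fit without the library labelled whole ileum pig 1 did not make (adjusted p = 0.27).

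By list, 4 of 18 granule genes were higher (both GZMA entries, GNLY and GZMK) and none lower, and the list's median log2 fold change was 0.44 beside 0.0065 over all genes tested. Transcription factors had 2 of 22 higher (PRDM1 and ZBTB16) and 1 lower (ZNF683), with a median of -0.035, cytokines 1 of 17 (IFNG) with a median of 0.020, and checkpoints 1 of 11 (ENTPD1) with a median of 0.79. Not one of 16 receptor and signalling genes, 14 natural killer receptor genes or 23 residence and homing genes passed. KLRK1, at 1073 to 1560 CPM in CTSW-high cells, had a log2 fold change of -0.16 ± 0.52 (adjusted p = 0.99, edgeR).

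With the pig as a block, since both classes were summed by pig, 273 genes passed (3.19% of those tested), 157 higher (1.83%) and 116 lower (1.35%), among them all 36. Without whole ileum pig 1, 18 passed (0.224%), 14 higher (0.174%) and 4 lower (0.0498%), all of them among the 36, and 12 of the 16 named genes kept their call. Those that lost it were ZNF683, TUBA4A, SYTL2 and CD200R1, and of the granule list GZMK lost it too (adjusted p = 0.11). The block added PRF1 (log2 fold change 0.69, adjusted p = 0.0064), FASLG (1.82, 0.0055), SERPINB9 (0.98, 0.0016) and ID2 (0.90, 0.0031) on the higher side, where the unblocked edgeR fit gave adjusted p of 0.25, 0.054, 0.24 and 0.058. On the lower side it added CCR9 (-1.80, 1.2e-05), XCL1 (-1.25, 0.0057), KIT (-1.18, 1.5e-04) and 5 of 6 class II antigen presentation genes. CCR9 stood at 77.0 to 113 CPM in members and 270 to 334 CPM in CTSW-high cells, without overlap. SLA-DRA stood at 325 to 664 against 997 to 1403 CPM, CD74 at 884 to 1658 against 2726 to 3229 CPM, and free RNA held 542 to 1602 CPM of SLA-DRA.

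**Figure D5:**
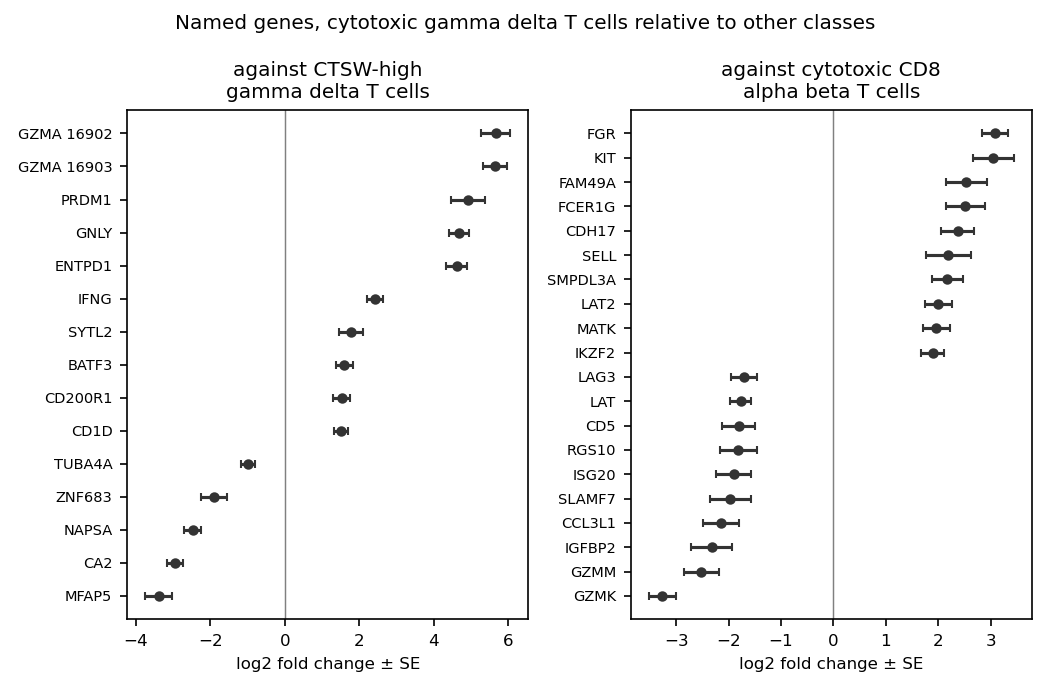
Log2 fold change ± SE (edgeR, 2 pigs) of named genes in cytotoxic gamma delta T cells relative to CTSW-high gamma delta T cells (left) and to cytotoxic CD8 alpha beta T cells (right); values above 0 are higher in cytotoxic gamma delta T cells, and the numbers after GZMA are the ends of its 2 identifiers. Granule genes, PRDM1 and ENTPD1 lead the left panel at 4.6 to 5.7, while GZMK, GZMM, LAT and CD5 lie below 0 in the right panel.

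The next comparison held the GZMB condition fixed and changed the lineage: 1429 ileal cells with CD3E and CD8B, no TRDC and the same GZMB condition were taken as cytotoxic CD8 alpha beta T cells. Members were higher in FCER1G, FGR, KIT, LAT2, MATK and IKZF2 and lower in GZMK, GZMM, CD5, LAT and 4 of 17 cytokine genes, of which FCER1G, MATK, CD5 and all 4 cytokine genes did not pass without whole ileum pig 1. Of 8569 genes 130 passed (1.52%), 91 higher (1.06%) and 39 lower (0.455%).

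FCER1G stood at 855 to 1538 CPM in members and 40.8 to 445 CPM in CD8 alpha beta T cells, with a log2 fold change of 2.51 ± 0.37 (adjusted p = 0.0033, edgeR). FGR, a Src-family kinase, was at 53.5 to 124 against 5.45 to 29.8 CPM (3.08 ± 0.24, adjusted p = 1.3e-05), and KIT, the stem cell factor receptor on chromosome 8 (41402334 to 41492306), at 38.2 to 80.3 against 0 to 12.7 CPM (3.05 ± 0.39, adjusted p = 0.0012). LAT2, an adaptor of innate and B cells, rose by 2.00 ± 0.26 and MATK by 1.96 ± 0.25, while LAT, an adaptor of T cell receptor signalling, was lower by -1.77 ± 0.20 (adjusted p = 4.4e-04). LAT stood at 91.9 to 145 CPM in members and 340 to 444 CPM in CD8 alpha beta T cells. CD5, which dampens T cell receptor signals, was at 81.8 to 175 against 250 to 386 CPM (-1.80 ± 0.31, adjusted p = 0.0093). For all of these genes the 6 libraries of members did not overlap with those of CD8 alpha beta T cells.

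The granule genes split. GNLY was higher in members (5788 to 13883 against 1650 to 5555 CPM, 1.52 ± 0.23, adjusted p = 0.0041, edgeR). GZMK, the granzyme of less differentiated T cells, was at 16.1 to 50.1 CPM against 179 to 374 CPM (-3.27 ± 0.25, adjusted p = 1.3e-05), and GZMM at 4.18 to 43.5 against 75.7 to 115 CPM (-2.52 ± 0.33). These were the only 3 of 18 granule genes to pass, and the list's median log2 fold change was 0.31 beside 0.0099 over all genes. GZMB, a gene of the rule for both, was at 10558 to 16422 CPM in members and 10334 to 14929 CPM in CD8 alpha beta T cells.

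Of 14 natural killer receptor genes, FCER1G, CD244 and CD96 were higher and SLAMF7, FCGR3A and CD226 lower, with a median of 0.78. None of these 6 passed without whole ileum pig 1 (adjusted p = 0.15 for FCGR3A, edgeR). FCGR3A, the Fc receptor CD16, stood at 545 to 995 against 1790 to 3147 CPM (-1.64 ± 0.28, adjusted p = 0.0086, edgeR). KLRK1 was at 994 to 1427 CPM in members and 118 to 538 CPM in CD8 alpha beta T cells, without overlap, yet its log2 fold change of 2.00 ± 0.54 missed the threshold (adjusted p = 0.11, edgeR) and passed with the pig as a block (adjusted p = 0.0021). Of 17 cytokine genes none was higher and 4 were lower (CCL3L1, IL10, IFNG and CCL4), with a median of -0.26. IFNG stood at 54.3 to 119 against 159 to 324 CPM (-1.47 ± 0.18, adjusted p = 8.3e-04; 0.093 without whole ileum pig 1).

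Among 22 transcription factor genes IKZF2, encoding Helios, was higher (213 to 258 against 35.4 to 83.5 CPM; 1.89 ± 0.22, adjusted p = 5.5e-04, edgeR) and so was ZNF683, and none was lower. Of 16 receptor and signalling genes, CD247 and RHEX were higher and CD5, LAT and CD8A lower. CD8A encodes the chain that pairs with CD8B, which was barred in members and required in CD8 alpha beta T cells. IL2RB was higher and IL7R lower among 15 cytokine receptor genes, and LAG3 and ICOS were lower among 11 checkpoint genes. CDH17, a cadherin best known from intestinal epithelium, was at 32.3 to 93.9 CPM in members and 2.72 to 22.8 CPM in CD8 alpha beta T cells (2.37 ± 0.32, adjusted p = 0.0023), with 18.6 to 97.6 CPM in free RNA. With the pig as a block 347 genes passed (4.05%), 230 higher (2.68%) and 117 lower (1.37%), all 130 among them. Without whole ileum pig 1, 23 passed (0.286%), 17 higher (0.212%) and 6 lower (0.0747%), and 10 of the 20 named genes kept their call, among them FGR, KIT, LAT2, IKZF2, CDH17, GZMK, GZMM and LAG3, while the others did not pass, among them FCER1G at an adjusted p of 0.14, CD5 at 0.13, MATK at 0.094, CCL3L1 at 0.0998 and SLAMF7 at 0.10. GNLY, of the granule list, gave 0.074. Of the list genes named in this comparison, LAT, CD8A, GZMK, GZMM, IKZF2 and LAG3 kept their call, and CD247, RHEX, ZNF683, IL2RB, IL7R and ICOS also lost it.

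Cytotoxic cells without CD3 formed the third comparison, and its calls differed between the class fixed for it and a wider one. The class fixed for it had no CD3E, CD3D or CD3G and held only 81 cells, 39 and 42 by pig, with the macrophage gene C1QA at 1254 and 9.73 CPM against 2.88 and 5.65 CPM in members. Of 8569 genes 168 passed (1.96%), 44 higher (0.513%) and 124 lower (1.45%) in members. Here the median of all genes was 0.19 on the log2 scale with trimmed-mean scaling and 0.027 with size factors, under which 18 genes were higher and 136 lower. Of the lists, 6 of 16 receptor and signalling genes were higher (CD3G and CD3D by the definition, then CD247, CD6, ZAP70 and LCK), with a median of 1.36, whereas KLRB1, TYROBP, IL22, CXCL8 and 3 class II genes were among the lower ones. CD247 stood at 1830 and 2150 CPM in members of the pigs against 184 and 302 CPM (3.25 ± 0.30, adjusted p = 4.9e-05, edgeR). Without whole ileum pig 1, which left under 20 cells of this class in pig 1, 18 genes passed (0.224%), 6 higher (0.0747%) and 12 lower (0.149%). With the pig as a block 274 passed (3.2%), 94 higher (1.1%) and 180 lower (2.1%). With sums per library, of 4 to 26 cells of this class each, the balance turned: of 529 genes that passed, 345 were higher and 184 lower in members.

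A wider class, chosen after these counts were seen, held the 1313 cells with neither CD3E nor TRDC, CD2 present and CD8B absent, under the same GZMB condition. Its CD3G (1919 and 2200 CPM) and CD3D (663 and 704 CPM) lay near those of members (1899 and 2026 CPM, and 661 and 593 CPM). Against it 80 of 8597 genes passed (0.931%), 42 higher (0.489%) and 38 lower (0.442%), 19 of them shared with the 168. Members were lower in GNLY (10642 and 12446 CPM against 36712 and 40854 CPM; -1.68 ± 0.23, adjusted p = 0.0040, edgeR), in the adaptor TYROBP (-2.61 ± 0.44), in the kinase SYK (-2.66 ± 0.37), in IL22 (-2.77 ± 0.27), in CDH17 (-1.63 ± 0.18) and in ENTPD1 (-1.01 ± 0.17). They were higher in CD6 (2.85 ± 0.21), ZAP70 (2.11 ± 0.17), XCL1 (2.30 ± 0.24) and CCR9 (2.07 ± 0.43). C1QA stood at 213 and 115 CPM in this class and was called lower in members (-5.15 ± 0.73, adjusted p = 0.0060, edgeR). C1QB, C1QC and AIF1 were also called lower. In the narrower class the log2 fold change of C1QA was -7.00 (adjusted p = 0.0080, edgeR), and -1.45 without whole ileum pig 1 (adjusted p = 0.88).

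Blood held few cells of this kind. The same rule kept 71 and 39 PBMC barcodes, whose GZMB, at 1847 and 1974 CPM, was close to that of blood free RNA (1397 and 1805 CPM). Against them ileal members were higher in ITGAE, RGS1, CXCR4 and CD69 and lower in KLF2, ITGB2, S100A4 and CX3CR1. Of 8569 genes 578 passed (6.75%), 285 higher (3.33%) and 293 lower (3.42%), and in this comparison tissue and cell preparation cannot be told apart.

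ITGAE stood at 284 to 629 CPM in members against 11.4 and 18.0 CPM in blood (5.02 ± 0.45, adjusted p = 1.6e-05, edgeR). RGS1 was at 1135 to 1777 against 51.4 and 36.0 CPM (5.02 ± 0.37), CXCR4 at 179 to 313 against 5.71 and 24.0 CPM (4.17 ± 0.50) and CD69, which holds cells in tissue, at 201 to 351 against 8.56 and 36.0 CPM (3.76 ± 0.40). On the lower side, KLF2, which drives the egress program, was at 2.18 to 45.9 against 488 and 372 CPM (-5.61 ± 0.34, adjusted p = 4.1e-07), ITGB2 at 4.37 to 36.8 against 662 and 348 CPM (-5.03 ± 0.32), and S100A4 at 6.99 to 87.0 against 1579 and 1230 CPM (-6.40 ± 0.49). CX3CR1 was 0 in 5 of the 6 ileal libraries and 3.35 CPM in the other, against 283 and 108 CPM in blood (adjusted p = 9.9e-06), and S1PR5, the egress receptor of natural killer cells, 0 in 4 of 6 against 114 and 48.0 CPM (adjusted p = 1.3e-04). In all, 5 of 23 residence and homing genes were higher and 8 lower, with a median log2 fold change of 0.25 beside 0.095 over all genes.

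The granzyme A entries separated the tissues unequally: ENSSSCG00000016902 stood at 48.5 and 174 CPM in blood (6.51 ± 0.43, adjusted p = 7.5e-07, edgeR) and ENSSSCG00000016903 at 991 and 522 CPM (2.50 ± 0.28, adjusted p = 8.5e-05). PRF1 was higher in the ileum (1.23 ± 0.24, adjusted p = 0.0071), and GNLY, at 18358 and 10741 CPM in blood, did not pass (-0.33 ± 0.23, adjusted p = 0.45). Blood free RNA held 10660 and 8578 CPM of GNLY. TBX21, the T-bet gene, was lower in the ileum (-2.61 ± 0.33, adjusted p = 2.6e-04), and with it EOMES, ZEB2, LEF1 and ZNF683, 5 of 22 transcription factor genes, while NR4A1, NFIL3 and ID2 were higher. ENTPD1, TNFRSF9 and HAVCR2 were higher among 11 checkpoint genes (median 1.89). DUSP4 and NR4A2 were at 248 to 357 and 202 to 298 CPM in members and at 0 to 5.71 CPM in blood.

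Of 8 immediate early genes 6 were higher in the ileum (EGR1, ATF3, DNAJB1, NFKBIA, FOS and JUN), with a median of 2.26. Without whole ileum pig 1 that count was 2 (NFKBIA and FOS), and the whole comparison gave 324 genes (4.03%), 163 higher (2.03%) and 161 lower (2%), 19 of the 20 named ones keeping their call. With the pig as a block 915 genes passed (10.7%), 468 higher (5.46%) and 447 lower (5.22%), all 578 among them. Markers of other cells moved with this comparison. FABP6, an enterocyte gene, was at 67.7 to 2120 CPM in members with 1917 to 27346 CPM in ileal free RNA and listed at 0 in the blood cells, and the hemoglobin gene HBB was at 14373 and 312 CPM in the blood cells with 36204 and 13463 CPM in blood free RNA. The 10 myeloid markers summed to 437 and 870 CPM in blood and 81.8 to 184 CPM in members, with LYZ at the highest CPM in blood and CST3 in 5 of 6 member libraries. Their part in the result was not tested.

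Within the cytotoxic gamma delta T cells, non-PP and PP differed in few genes. Sums per library were fitted by dissection over 5069 genes, and 2 passed (0.0395%), both lower in non-PP, with 229 at an unadjusted p below 0.05. ZNF70 stood at 0.728 and 0.635 CPM in non-PP, 40.2 and 38.7 CPM in PP, and 40.9 and 71.0 CPM in whole ileum, and its free RNA at 135, 147, 833, 896, 480 and 921 CPM in that order. LTB, a lymphotoxin chain needed for lymphoid follicles, stood at 8.73 and 24.1 CPM in non-PP, 147 and 103 CPM in PP and 87.0 and 87.7 CPM in whole ileum (-2.93 ± 0.38, adjusted p = 0.023, edgeR), with 140, 140, 519, 678, 463 and 492 CPM in free RNA. For both genes free RNA was thus higher in PP as well, and its part in the result was not tested.

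GNLY was higher in both non-PP libraries (log2 fold change 0.95), at an adjusted p of 0.18 without a block and 0.019 with the pig as a block (edgeR). Its free RNA was higher there too, at 7690 and 14410 CPM against 2139 and 2633 CPM in PP, and its part was not tested. The blocked fit called 11 genes (0.217%), 3 higher (0.0592%) and 8 lower (0.158%) in non-PP, the others being FABP6 and HBB on the higher side (HBB through non-PP pig 2 alone, at 266 CPM, since in pig 1 it stood at 7.28 CPM in non-PP and 13.4 CPM in PP) and, with symbols, S100A4, FCRL6, DUT and PCNA on the lower. Without either whole ileum library none passed, and none when doublets were removed (edgeR). The 18 granule genes had a median log2 fold change of 0.19 and the 17 homing genes tested 0.0090, beside 0.0050 over all genes, and ITGAE and CCR9 did not pass. No list other than the cytokines, through LTB, held a gene that passed without the block.

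The levels of other cells' markers in members differed between libraries. The 8 B cell markers summed to 8.73 to 45.9 CPM per library, the stromal markers to 0 to 6.45 CPM with COL1A1 at 0 throughout, the epithelial markers to 41.9 to 260 CPM with CDH17 at the highest CPM in all 6 and the highest sum in non-PP pig 1, where FABP6, outside that list, stood at 2120 CPM, and the CD4 T cell markers to 21.1 to 83.8 CPM. Group 3 innate lymphoid markers summed to 62.6 to 119 CPM, with KIT at the highest CPM in all 6 and IL1R1 at 0. The 6 antibody-secreting markers summed to 1712 CPM in non-PP pig 2 and 107 to 342 CPM elsewhere, with JCHAIN at 1642 CPM there against 38.6 to 284 CPM. The same library had 49 of 494 members over a doublet score of 0.25, against 32 of 499 in non-PP pig 1 and 0 to 7 in each of the others.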

How the data were processed

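Single-cell suspensions of ileum and PBMC from 2 pigs were captured on the 10x Chromium 3′ platform. The authors aligned reads to Sscrofa11.1 with an Ensembl annotation they had modified and counted UMIs with Cell Ranger. The files hold whole-number UMI counts of each gene in each barcode, deposited as they stood before the authors' removal of free RNA and doublets, neither of which is in them. Each library's 4 sequencing runs counted as 1 sample. No column lacked a sample (0).

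Library totals were 21134542 to 40111934 UMIs in the ileum and 36465389 and 38240907 in PBMC. Barcodes with 1250 or more UMIs, 550 or more genes and at most 12.5% mitochondrial UMIs were kept (3776 to 7704 per ileal library, 6443 and 6800 in PBMC). Counts were summed by class and pig, the pig as labelled being the replicate, with at least 20 cells in each sum (except the CD3-negative class of pig 1 without whole ileum pig 1, fitted with fewer, an exception made after seeing the data), and tested with edgeR 4.0.16 (glmQLFit and glmQLFTest, TMM scaling) in R 4.3.3, adjusted by Benjamini-Hochberg over all genes tested. The analysis was tested on simulated counts. For non-PP against PP, library sums were fitted. Alternatives were DESeq2 1.42.0, other filters and thresholds, left-out libraries and the pig as a block. Free RNA was taken from barcodes with at most 50 UMIs. Doublets were scored with Scrublet (scanpy 1.11.5, expected rate 0.07) and kept, with removal as an alternative.

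Named genes were the 10 with the largest log2 fold change in each direction among called genes with a symbol, outside the rule, at 50 CPM or more where higher, and on the same side in both pigs; others stand for their list or role, or were singled out after their values were seen (the genes apart between pigs, C1QA and the quartile genes). Members, lists and tests were chosen with earlier results of these data known. Libraries with the same number are labelled as the same animal. Deviations of members from the mean of the pigs correlated at 0.345, 0.403, 0.0520 and 0.131 with those of CTSW-high, CD8, CD3-negative and blood cells across genes, and the Y-linked counts of 1 library go against the pairing. With 2 libraries a group the permutation test cannot reach an exact p below 0.333. A few results are not reported here.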

Additional observations from a re-analysis of the deposited data

Results flagged for a closer look

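The summed level of 6 antibody-secreting cell markers in members was 1712.4 CPM in non-PP pig 2, far from the 107 to 342 CPM of the other ileal libraries. The gap to the nearest library was 0.853 of the whole range, and JCHAIN made up 1642 CPM of the sum. In the same library the mast and erythroid markers summed to 340.57 CPM (gap 0.831 of the range), of which HBB gave 266 CPM. A gap past the limit used here arises by chance in about 1 in 20 groups, and 9 lists of other cells' markers were looked at. JCHAIN was detected in 19.4% of members of that library. In members of non-PP pig 1 it was detected in 8.42%, and in those of PP and whole ileum in 33.1% to 43.3%. Free RNA of non-PP pig 2 held 1561 CPM of JCHAIN and 4419 CPM of HBB. The part of free RNA, or of a few cells with many JCHAIN UMIs, in the result was not tested.

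Y-linked genes, which entered no comparison, stood at 206.64 CPM in whole ileum pig 1 as labelled, and at 0 to 0.224 CPM in the other libraries of that female pig. Whether the library holds another animal's cells was not tested beyond the counts given above.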

How the results depend on the processing

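The higher share in non-PP kept its direction in every alternative. The difference from PP was 7.68 percentage points with barcodes thinned to 1250 UMIs, 10.8 with doublets removed, 10.2 at 10 or more GZMB UMIs (chosen after seeing the data), 12.7 of CD3E-positive barcodes and 30.5 of gamma delta barcodes.

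Counts of called genes moved far more. Against CTSW-high cells the count of 36 became 273 with the pig as a replicate block, 69 with DESeq2, 193 without a filter, 172 with sums per library, 57 without large cells, 118 at 10 or more GZMB UMIs and 18 without whole ileum pig 1. The sums per library, without pig 1 or pig 2, gave 79 and 36 in place of 172. Sums per library count dissections of 1 labelled pig as replicates. Without pig 1 or pig 2 they hold no spread between labelled pigs. Against CD8 cells 130 became 347 with the block, 300 without a filter, 210 with sums per library (200 and 56 without pig 1 or pig 2), and 23 without whole ileum pig 1. Against CD3-negative cells 168 became 274 with the block, 254 with DESeq2, 461 without a filter, 529 with sums per library (112 and 209 without pig 1 or pig 2), 73 at 3 or more GZMB UMIs, 70 without large cells, 80 with the wider class (chosen after seeing the data), and 18 without whole ileum pig 1. Against blood 578 became 915 with the block, 963 without a filter, 673 with sums per library (322 and 321 without pig 1 or pig 2), and 324 without whole ileum pig 1. Between non-PP and PP 2 became 11 with the block, 4 with DESeq2, 43 without a filter, 0 with doublets removed, 0 at 10 or more GZMB UMIs, and 0 to 15 with 1 replicate left out. Without non-PP pig 2, chosen after seeing its JCHAIN, the 5 counts were 38, 98, 131, 538 and 15. Where leaving out a replicate left 1 library in a group (blood without a pig, non-PP or PP without a replicate), that library was assumed to vary like the other groups. The cause was not tested.

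In the wider class without CD3E and TRDC, whose CD3G and CD3D lay near those of members, CD3D (-0.047), ERMP1 (-0.23) and CD200R1 (-0.35) changed sign. Of the named genes' values under alternatives, 196 of 208 against CTSW-high cells, 240 of 260 against CD8, 183 of 245 against CD3-negative cells, 223 of 233 against blood and 17 of 26 between dissections kept their direction and side of the threshold. CD3-negative and blood cells at 10 or more GZMB UMIs were not run, with under 20 cells in a pig. There was 1 library a pig and dissection, with few members in PP (91 and 119). How small a difference between dissections could be detected is not given here.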
